A study of Mus musculus with 11 samples.

Results

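The 8 genes described here encode the pacemaker channel Hcn4, the potassium channels and subunits Kcnj2, Kcnh2, Kcnq1 and Kcne1, and the gap junction proteins Gja1, Gja5 and Gjc1. They were chosen by name, as genes of the cardiac pacemaker, of repolarization and of cell-to-cell conduction, with earlier results of these data known. All 8 were found by symbol among the 55487 genes counted. Each had at least 896 reads in every heart, so that all 8 passed the limit of 10 counts over the 11 hearts that left 24177 genes for the test.

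The heart beats because cells of the sinoatrial node depolarize spontaneously, and the impulse passes from myocyte to myocyte through gap junctions. Hcn channels carry the inward current of the pacemaker and open more readily when cAMP binds to them. Inward rectifier channels such as that encoded by Kcnj2 hold the resting potential, the channels of Kcnh2 and of Kcnq1 with Kcne1 end the action potential, and connexins form the gap junctions, with different members in working myocardium, in the fast conducting fibres and in nodal tissue.

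Hearts were isolated from embryos at E14.5, and RNA from 5 Pde2A-/- and 6 Pde2A+/+ hearts was sequenced, 1 library per heart. Both genotypes came from crosses of Pde2A+/- parents of the line B6; 129P2-Pde2A<tm1Dgen>, in which the allele is inactivated in every cell, on a mixed background and without drug treatment in these hearts. Pde2A degrades cAMP and cGMP, and its loss in the embryo comes with anemia and a small liver. Embryos of both sexes were used, and the sex and litter of single hearts are not given.

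The question behind the comparison was whether genes of the pacemaker and of the gap junctions differ in level in hearts that lack this phosphodiesterase, since cAMP has been linked to a pacemaker-like state of fetal cardiomyocytes. Reads on the sense strand of genes numbered between 35865537 and 42835382 per heart. Pde2a itself, on chromosome 7 from 101421691 to 101512827, had 0 to 2 counts per heart and 7 in all, so it gave no check of the genotype labels. Genes of other organs stood apart in some libraries. The summed level of 4 thymus genes was 53.4 CPM in Pde2A+/+ heart 7 and at most 0.183 CPM in each other heart, that of 3 lung genes was 9.27 CPM in Pde2A+/+ heart 11 and at most 0.597 CPM elsewhere, and that of 4 liver genes ranged from 33.4 to 105 CPM in Pde2A-/- heart D and Pde2A+/+ hearts 11, H and E and reached at most 2.03 CPM elsewhere. Each heart was left out in turn, and calls of the 8 genes that were lost without 1 of these hearts are given beside them; for other genes the hearts are named.

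Levels per length are compared first, because only on that scale can different genes be set side by side. The RPKM values used are CPM, reads scaled to a common library size, divided by the length of the merged exons in kilobases. In Pde2A+/+ hearts Gja1, the main connexin of ventricular working myocardium, had the highest level of the 8, 56.9 ± 6.62 RPKM (SD, n = 6). Kcnh2, which encodes the channel of the rapid delayed rectifier current, followed with 30.9 ± 3.32 RPKM. Gja5, the connexin of atria, the ventricular conduction fibres and arterial endothelium, had 30.2 ± 3.52 RPKM, so that the values of Kcnh2 and Gja5 overlapped.

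Kcne1, the small subunit that slows the Kcnq1 channel, had 22.5 ± 5.93 RPKM and also overlapped with Gja5. Gjc1, the connexin of nodal tissue and of the early heart tube, had 14.1 ± 0.753 RPKM and lay below Kcne1 in every Pde2A+/+ heart, with ranges apart. Kcnq1 at 8.56 ± 1.53 RPKM, Kcnj2 at 6.42 ± 1.45 RPKM and Hcn4 at 6.38 ± 1.15 RPKM closed the order. Neither Kcnq1 and Kcnj2 nor Kcnj2 and Hcn4 were separated by the ranges over Pde2A+/+ hearts. Within single hearts, Kcnq1 lay above Kcnj2 in all 6 Pde2A+/+ hearts and in 1 of the 5 Pde2A-/- hearts.

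In Pde2A-/- hearts the same scale gave 78.8 ± 15.6 RPKM for Gja1 and 13 ± 5.26 RPKM for Kcnj2 (SD, n = 5), while Hcn4 had 5.55 ± 1.34 RPKM. Kcnj2 thus lay above Hcn4 in all 5 Pde2A-/- hearts with ranges apart, whereas it was the higher of the pair in 3 of the 6 Pde2A+/+ hearts. The length used matters for Gja1, whose merged exons span 10257 bases and whose longest transcript spans 3889. Per longest transcript the mean level of Gja1 in Pde2A+/+ hearts was 150 RPKM and that of Gja5 47.3 RPKM against 35.4 RPKM for Kcnh2, so that Gja5 and Kcnh2 changed places.

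**Figure D1:**
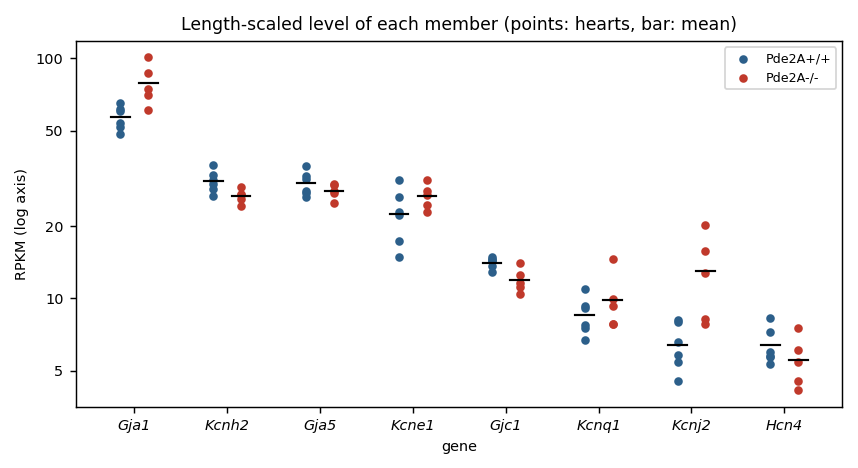
Length-scaled level (RPKM, log axis) of the 8 genes in each heart, ordered by the mean in Pde2A+/+ hearts, with bars at the mean of each genotype. Gja1 lies highest in both genotypes, and Kcnj2 is level with Hcn4 in Pde2A+/+ hearts, with a mean of 13 RPKM against 5.55 in Pde2A-/- hearts.

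The comparison of genotypes used the quasi-likelihood test of edgeR, with p-values adjusted over all genes tested after Benjamini and Hochberg, and levels are given in CPM. A gene is said to have risen or fallen when its adjusted p was under 0.05. Of the 8 genes, 2 rose in Pde2A-/- hearts, Kcnj2 and Gja1, and 1 fell, Gjc1, beside 8.93% of all genes tested that rose and 5.67% that fell, 14.6% together. With a fold of at least 2 as well, 1 of the 8 passed, Kcnj2, beside 2.59% of all genes. The other 5, Hcn4, Kcnh2, Kcnq1, Kcne1 and Gja5, did not pass the test. Over the 8 genes the log2 fold change had a median of 0.05, against -0.02 over all genes tested. In whole hearts fewer cells of a type and less RNA per cell cannot be told apart.

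Kcnj2 (ENSMUSG00000041695, chromosome 11 from 111066164 to 111076821, plus strand) encodes the pore of the inward rectifier that clamps the resting potential of working myocytes and is scarce in nodal cells. In Pde2A-/- hearts A, B, 14, D and 15 its levels were 44.7, 42.5, 69.7, 86.2 and 110 CPM. In Pde2A+/+ hearts 7, 11, 6, 8, H and E they were 31.8, 35.9, 24.6, 29.5, 43.5 and 44.4 CPM. Pde2A-/- hearts A and B lay beside the highest Pde2A+/+ hearts, and 14, D and 15 lay well above every one of them.

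The means were 70.7 ± 28.6 CPM (SD, n = 5) and 34.9 ± 7.87 CPM (SD, n = 6), a log2 fold change of 1.01 with an SE of 0.23 and a 95% interval from 0.51 to 1.52. The test of edgeR gave an adjusted p of 0.0147, and 2.21% of all genes tested rose at this level with a fold of at least 2. Kcnj2 also passed in all 21 alternative fits that used every heart or every heart but 1, with log2 fold changes from 0.80 without Pde2A-/- heart 15 to 1.15 without heart B.

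Gja1 (ENSMUSG00000050953, chromosome 10 from 56377330 to 56402513, plus strand) encodes Cx43, the connexin that couples working ventricular myocytes and is also made by fibroblasts, smooth muscle and epicardium. Its levels in Pde2A-/- hearts A, B, 14, D and 15 were 625, 722, 766, 889 and 1038 CPM. In Pde2A+/+ hearts 7, 11, 6, 8, H and E they were 552, 495, 619, 532, 672 and 634 CPM. Only Pde2A-/- heart A lay within the range of the Pde2A+/+ hearts.

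The log2 fold change of Gja1 was 0.47 with an SE of 0.12 and a 95% interval from 0.21 to 0.72, from means of 808 ± 160 and 584 ± 67.9 CPM (adjusted p = 0.0204, edgeR's quasi-likelihood test). Without Pde2A-/- heart D, 1 of the libraries with liver genes, the log2 fold change was 0.43 and the adjusted p 0.0604. Gja1 passed in the other 20 of the 21 alternative fits.

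**Figure D2:**
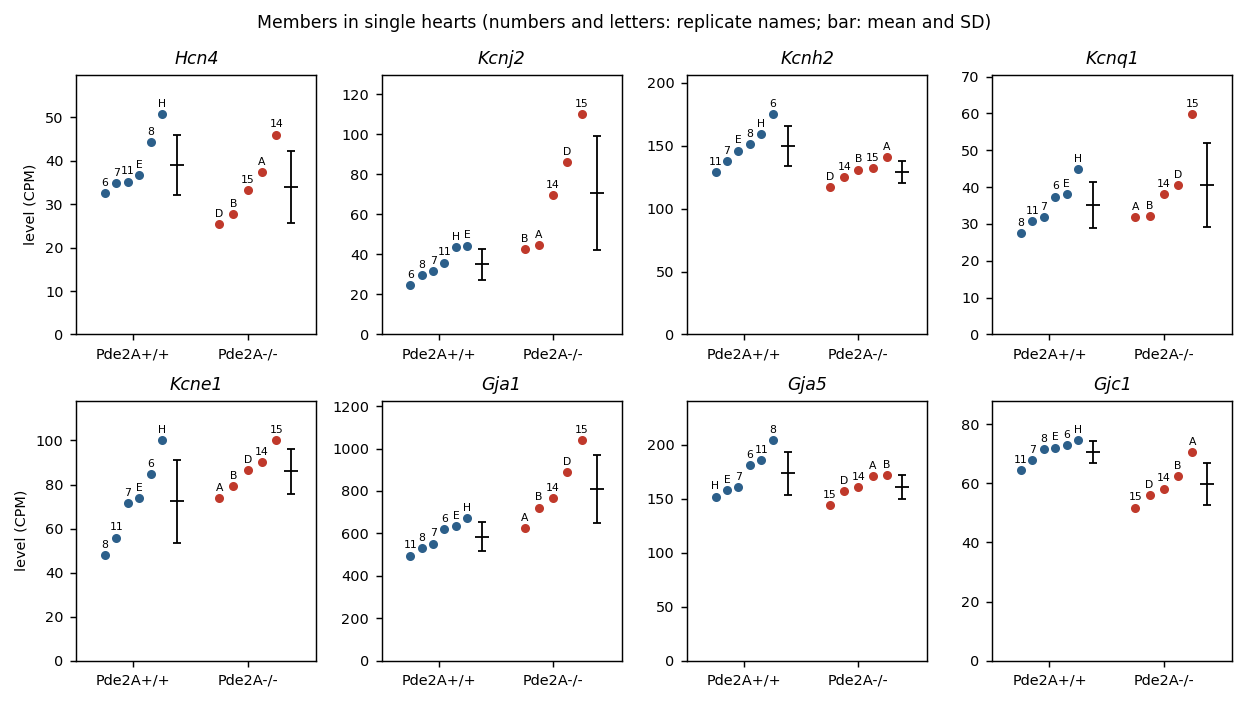
Level (CPM, axes from 0) of each of the 8 genes in single hearts, sorted within each genotype and marked with the replicate name, with the mean and SD beside the points. For Kcnj2 and Gja1, 4 of 5 Pde2A-/- hearts lie above every Pde2A+/+ heart, and for Gjc1 4 of 5 lie below.

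The stretches of 250 bases before the start of these genes are shown for the 2 that rose, since regulators that act downstream of cAMP and of low oxygen bind short motifs near promoters. RefSeq (GRCm38.p6) had an entry for 5 of the 8 genes, Gja1, Gja5, Hcn4, Kcnh2 and Kcnj2. Capitals mark matches on either strand to 5 motifs, the cAMP response element TGACGTCA, the shorter core TGACG of that element, the AP-1 site TGAGTCA, the hypoxia response core ACGTG and the E-box CACGTG. The E-box holds the hypoxia core on both strands, and the full element holds its core on both strands. The Gja1 window is chr10:56377050-56377299 and the Kcnj2 window chr11:111065914-111066163, both on the plus strand.
Gja1: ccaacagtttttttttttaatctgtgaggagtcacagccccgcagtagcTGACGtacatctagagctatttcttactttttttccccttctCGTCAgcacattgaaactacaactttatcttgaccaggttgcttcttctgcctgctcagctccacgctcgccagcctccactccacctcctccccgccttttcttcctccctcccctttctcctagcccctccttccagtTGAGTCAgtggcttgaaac
Kcnj2: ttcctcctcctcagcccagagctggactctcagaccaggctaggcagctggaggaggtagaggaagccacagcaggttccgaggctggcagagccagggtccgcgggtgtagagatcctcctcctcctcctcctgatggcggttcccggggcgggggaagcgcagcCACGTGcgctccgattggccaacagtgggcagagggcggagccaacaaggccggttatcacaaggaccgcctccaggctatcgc

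The Gja1 window held the core of the cAMP response element at 201 and 159 bases before the start, the second on the minus strand, and an AP-1 match at 19 bases before it. The Kcnj2 window held 1 E-box, 84 bases before the start. The Gja5 window held 1 such core, 224 bases before the start, and none of the 5 motifs was in the windows of Hcn4 and Kcnh2. The windows of Gja5 and Kcnh2 lie before starts inside the annotated genes. Of the 32851 promoter windows of the same length, 17.8% held this core, 4.46% the AP-1 site, 6.02% the E-box, 16.6% the hypoxia core and 1.55% the full cAMP response element, which none of the 5 genes held. A match is a stretch of letters and was not tested for binding.

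Gjc1 (ENSMUSG00000034520, chromosome 11 from 102799579 to 102819700, minus strand) encodes Cx45, which joins the slowly conducting cells of the nodes. Its levels in Pde2A-/- hearts A, B, 14, D and 15 were 70.5, 62.4, 58.2, 56 and 51.8 CPM. In Pde2A+/+ hearts 7, 11, 6, 8, H and E they were 67.8, 64.4, 72.9, 71.6, 74.5 and 72.1 CPM. The order of the Pde2A-/- hearts was that of Gja1 turned round, with A nearest to the Pde2A+/+ hearts and 15 farthest.

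Gjc1 fell by 0.24 on the log2 scale with an SE of 0.07 and a 95% interval from -0.39 to -0.08 (means of 59.8 ± 7.1 and 70.6 ± 3.77 CPM, adjusted p = 0.041, edgeR's quasi-likelihood test). This small difference passed in 3 of the 11 fits that left out 1 heart, those without Pde2A-/- heart A or B or Pde2A+/+ heart 11. When libraries were scaled to the summed counts of 16 cardiomyocyte genes, which moved the median of all genes by 0.13, it was -0.10 with an adjusted p of 0.531.

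Gja5 (ENSMUSG00000057123, chromosome 3 from 96904693 to 97077416, plus strand), which encodes Cx40, had 144 to 172 CPM with a median of 161 in Pde2A-/- hearts, and 152 to 204 CPM in Pde2A+/+ hearts. The genotypes overlapped widely, and the log2 fold change of -0.11 had a 95% interval from -0.28 to 0.06 (adjusted p = 0.375, edgeR's quasi-likelihood test). Scaling to cardiomyocyte genes turned it to 0.02.

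The balance of the connexins within a heart does not depend on how libraries are scaled. Its ratios are built from the levels compared above, so they restate those differences and are not separate support for them. The log2 ratio of Gjc1 to Gja1, per length, was -2.71 ± 0.45 in Pde2A-/- hearts (SD, n = 5) and -2.01 ± 0.11 in Pde2A+/+ hearts (n = 6), a difference of -0.70 (exact permutation test over all splits of 5 against 6 hearts, two-sided, p = 0.00433, adjusted p = 0.013 over the 3 ratios tested). The log2 ratio of Gja5 to Gja1 was -1.47 ± 0.38 in Pde2A-/- hearts and -0.91 ± 0.31 in Pde2A+/+ hearts, a difference of -0.56 (exact permutation test, two-sided, p = 0.0238, adjusted p = 0.0357). Both ratios, which share Gja1, had thus shifted toward Gja1 in the mean of the Pde2A-/- hearts, but not in each heart. For Gjc1 to Gja1 the ranges were -3.29 to -2.11 in Pde2A-/- and -2.14 to -1.86 in Pde2A+/+ hearts. For Gja5 to Gja1 they were -2.02 to -1.03 and -1.31 to -0.54, so that both pairs of ranges overlapped. Among hearts named by letter in the labels, the log2 fold changes of Gja1, Gja5 and Gjc1 were 0.19, 0.11 and -0.22. Among hearts named by number they were 0.71, -0.27 and -0.33. The 95% intervals among letter-named hearts were -0.15 to 0.53 for Gja1 and -0.10 to 0.31 for Gja5. That of Gja1 held both 0 and the 0.47 of all hearts, and the ratios were not tested within these sets. Without Pde2A-/- heart D the difference for Gja5 was -0.51 (p = 0.0524, same exact test) and without heart 15 it was -0.42 (p = 0.0619).

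Hcn4 (ENSMUSG00000032338, chromosome 9 from 58823412 to 58863175, plus strand) is the main pacemaker channel of the sinoatrial node. Its levels were 37.3, 27.7, 46, 25.4 and 33.3 CPM in Pde2A-/- hearts A, B, 14, D and 15, and 34.8, 35.2, 32.5, 44.2, 50.7 and 36.7 CPM in Pde2A+/+ hearts 7, 11, 6, 8, H and E. Pde2A-/- hearts B and D had the 2 lowest levels of all, heart 14 the second highest. The log2 fold change was -0.20 with a 95% interval from -0.53 to 0.13 (adjusted p = 0.409, edgeR's quasi-likelihood test), so that a rise of more than 0.13 lay outside the interval and a fall of up to 0.53 inside it.

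Kcnh2 (ENSMUSG00000038319, chromosome 5 from 24319589 to 24351604, minus strand) had levels of 141, 131, 125, 117 and 132 CPM in Pde2A-/- hearts A, B, 14, D and 15, and 138, 129, 175, 151, 159 and 146 CPM in Pde2A+/+ hearts 7, 11, 6, 8, H and E. The lowest 2 were Pde2A-/- hearts D and 14, and all Pde2A-/- hearts lay below the 4 highest Pde2A+/+ hearts. The log2 fold change was -0.21 with a 95% interval from -0.37 to -0.05, and its adjusted p of 0.072 in edgeR missed the threshold. DESeq2 gave 0.0322, edgeR's own filter on low counts 0.047 and the fit without Pde2A+/+ heart 11 gave 0.0354, all adjusted, whereas cardiomyocyte scaling gave a log2 fold change of -0.07.

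Kcnq1 (ENSMUSG00000009545, chromosome 7 from 143106362 to 143427042, plus strand), the pore of the slow delayed rectifier channel, had 31.9, 32.1, 38, 40.6 and 59.8 CPM in Pde2A-/- hearts A, B, 14, D and 15. In the Pde2A+/+ hearts it had 27.5 to 44.8 CPM, so that only Pde2A-/- heart 15 lay outside their range. The log2 fold change was 0.21 with a 95% interval from -0.14 to 0.56 (adjusted p = 0.432, edgeR's quasi-likelihood test), and 0.03 without heart 15.

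Its partner Kcne1 (ENSMUSG00000039639, chromosome 16 from 92345982 to 92359468, minus strand) had 74, 79.2, 90.3, 86.4 and 100 CPM in Pde2A-/- hearts A, B, 14, D and 15, and 47.9 to 100 CPM in Pde2A+/+ hearts. Its lowest values were those of Pde2A+/+ hearts 8 and 11. The log2 fold change was 0.25 with a 95% interval from -0.09 to 0.59 (adjusted p = 0.313, same test). The log2 ratio of Kcne1 to Kcnq1 was 1.47 ± 0.22 in Pde2A-/- and 1.37 ± 0.17 in Pde2A+/+ hearts (two-sided exact permutation test, p = 0.422).

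Kcnq1 lies in an imprinted domain, and the antisense RNA Kcnq1ot1, which is read from the paternal chromosome and silences neighbours there, covers 2.96% of its merged exons on the opposite strand. Kcnq1ot1 had 7.66 to 11.9 CPM in Pde2A-/- hearts and 11.8 to 18 CPM in Pde2A+/+ hearts, which overlapped only by the highest Pde2A-/- heart. It fell by 0.52 on the log2 scale (SE 0.13, adjusted p = 0.0204, edgeR's quasi-likelihood test), and its adjusted p was 0.117 with cardiomyocyte scaling, 0.0569 without Pde2A-/- heart D and 0.0551 without heart 15. The neighbours Cdkn1c, Phlda2 and Slc22a18 did not pass the test, with log2 fold changes from -0.36 to -0.21. Phlda2 had only 3 to 12 counts per heart and Slc22a18 19 to 39, so that little can be read from these 2. Cdkn1c had 16086 to 29812. Pde2a lies 41.6 Mb from Kcnq1 on the same chromosome.

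The Pde2A-/- hearts did not move as a block. Heart A lay within 0.12 of the Pde2A+/+ mean on the log2 scale for 7 of the 8 genes, all but Kcnj2 at 0.39. Of the Pde2A-/- hearts, 15 deviated most for Kcnj2 (1.69), Gja1 (0.84), Kcnq1 (0.79), Kcne1 (0.52), Gjc1 (-0.44) and Gja5 (-0.26), and heart D for Hcn4 (-0.60) and Kcnh2 (-0.34). Among Pde2A-/- hearts the coefficient of variation was 40.5% for Kcnj2 and 19.8% for Gja1, against 22.5% and 11.6% among Pde2A+/+ hearts, and it ran the other way for Kcne1, with 11.9% against 26.3%. Counting error alone was at most 3.34% for any of these 8 genes in any heart.

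**Figure D3:**
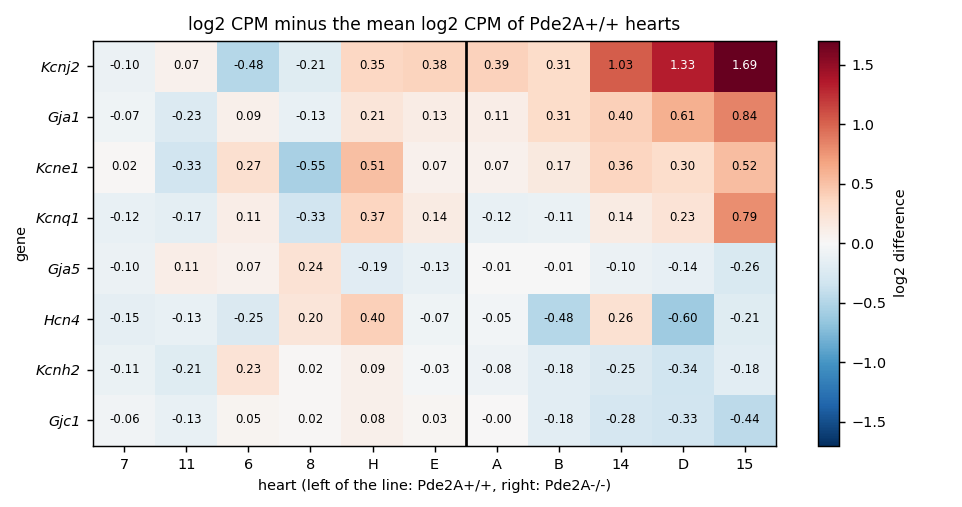
Deviation of each gene in each heart from the mean log2 CPM of the Pde2A+/+ hearts, with Pde2A+/+ hearts left and Pde2A-/- hearts right of the line. Kcnj2 deviates by 0.31 in Pde2A-/- heart B and by 1.69 in heart 15, and Gjc1 by -0.44 in heart 15.

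The labels name some hearts by letter (3 Pde2A-/- and 2 Pde2A+/+) and others by number (2 Pde2A-/- and 4 Pde2A+/+), without saying what the names stand for. Among number-named hearts the log2 fold change of Kcnj2 was 1.56 (adjusted p = 0.0046 in edgeR), and among letter-named hearts it was 0.39 (adjusted p = 0.647). For Gja1 the values were 0.71 (adjusted p = 0.00943, same test) and 0.19 (adjusted p = 0.681). The difference between the sets was itself tested in edgeR and came to 1.17 for Kcnj2 and 0.52 for Gja1, with an adjusted p of 0.653 for both.

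The directions of Hcn4, Kcnq1, Kcne1 and Gja5 were opposite between the 2 sets of hearts, with log2 fold changes of -0.54, -0.25, -0.13 and 0.11 among letter-named hearts and 0.11, 0.62, 0.55 and -0.27 among number-named hearts. Of the 24177 genes, 0 passed the adjusted p for this difference with edgeR and 1763 had an unadjusted p under 0.05, 7.29% of all. Of the 8 genes 6 did, all but Kcnh2 and Gjc1. Gjc1 and Kcnh2 were lower in Pde2A-/- hearts of both sets, by values of -0.22 and -0.33 for Gjc1 and of -0.23 and -0.21 for Kcnh2. With the naming as a term in a fit of all hearts, the log2 fold changes of Kcnj2 and Gja1 were 1.02 and 0.47. Such a term takes out a shift in level between the sets and cannot show whether the genotype difference is the same in both.

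**Figure D4:**
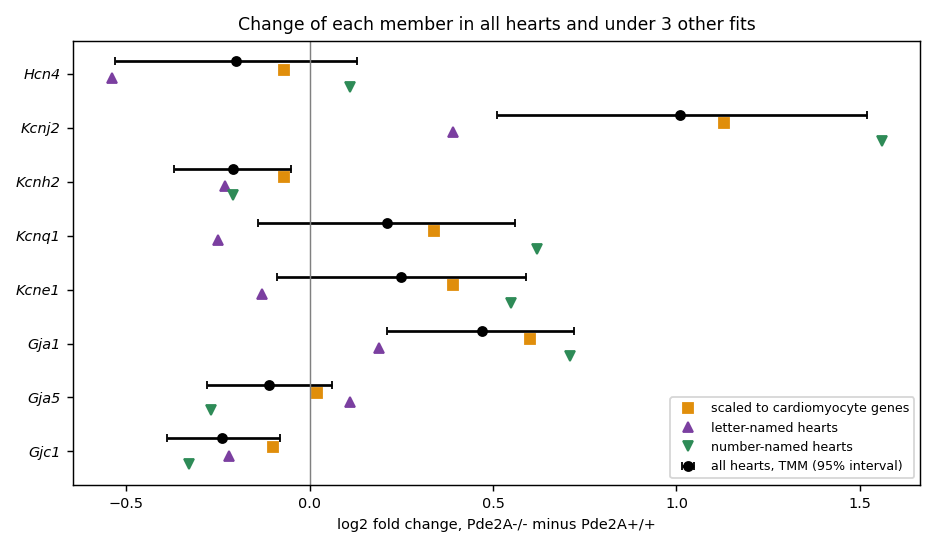
Log2 fold change of each gene, Pde2A-/- minus Pde2A+/+, with the 95% interval for all hearts (black), and the estimates after cardiomyocyte scaling, among letter-named hearts and among number-named hearts. Kcnj2 and Gja1 are above 0 in every fit shown, at 0.39 and 0.19 or more, while Gja5 lies on both sides of 0.

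Marker genes of cell types also moved with genotype. Of 16 cardiomyocyte genes, 7 fell and 0 rose, with a median log2 fold change of -0.23, and their summed level was 26086 to 28838 CPM in Pde2A-/- hearts and 26755 to 34660 CPM in Pde2A+/+ hearts. All 7 macrophage genes rose, from a summed 88.9 to 140 CPM in Pde2A+/+ hearts to 180 to 235 CPM in Pde2A-/- hearts. Of 7 fibroblast genes 3 rose and 0 fell, with summed levels of 5435 to 8756 CPM and 4628 to 8164 CPM in Pde2A-/- and Pde2A+/+ hearts.

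Of the 6 erythroid genes tested 5 rose, with summed levels of 421 to 861 CPM in Pde2A-/- and 106 to 484 CPM in Pde2A+/+ hearts. None of the 6 epicardial genes passed the test, and their sum ran from 249 to 460 CPM in Pde2A-/- hearts and from 192 to 474 CPM in Pde2A+/+ hearts, with the 3 Pde2A-/- hearts high in Kcnj2, hearts 14, D and 15, at 431 to 460 CPM. Pde2A+/+ hearts 11 and 8 had sums as high, 474 and 459 CPM, with Kcnj2 at 35.9 and 29.5 CPM. Hearts 14, D and 15 also lay above hearts A and B in macrophage and fibroblast genes. The sums were 232 to 235 against 180 and 199 CPM for macrophage genes, and 6821 to 8756 against 5602 and 5435 CPM for fibroblast genes. Pde2A+/+ hearts 11 and E had 8164 and 7358 CPM of fibroblast genes. Sums of erythroid, atrial and smooth muscle genes did not separate these Pde2A-/- hearts, and endothelial sums were lower in 14, D and 15. The mean log2 CPM, less weighted to the highest genes, did separate them for chamber genes. For atrial genes it was 7.29 to 7.59 in hearts 14, D and 15 against 7.05 and 7.13 in A and B. For ventricular genes it was 7.24 to 7.41 against 7.61 and 7.62. Pde2A+/+ hearts ranged from 6.70 to 7.71 for atrial and from 7.28 to 7.86 for ventricular genes. Of 9 ventricular genes 0 passed, and of 8 atrial genes 2 rose and 2 fell. Of 10 endothelial genes 3 rose and 1 fell, with a median log2 fold change of 0.19 and summed levels of 1433 to 1597 CPM in Pde2A-/- and 1194 to 1419 CPM in Pde2A+/+ hearts. Of 6 arterial endothelial genes 1 fell and 0 rose, with sums of 353 to 372 CPM and 335 to 388 CPM, and of 6 smooth muscle genes 1 fell and 0 rose, with sums of 1303 to 1576 CPM and 1401 to 2066 CPM in Pde2A-/- and Pde2A+/+ hearts. The part of these cells in the levels of the 8 genes was not tested. With cardiomyocyte scaling the log2 fold change was 1.13 for Kcnj2 (adjusted p = 0.00433, edgeR) and 0.60 for Gja1 (adjusted p = 0.00121, edgeR).

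Across the wider electrical system, 93 other genes were listed by function, also with earlier results of these data known, and 89 were tested. Of these 9 rose and 10 fell, to be read beside the 8.93% and 5.67% of all genes, with a median log2 fold change of 0.03. With cardiomyocyte scaling the counts were 15 higher and 1 lower. This scaling moved the median log2 fold change of all genes from -0.02 to 0.11. The shares of all genes called under it were not counted, so this change of counts cannot be read as particular to these genes.

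The other Hcn channels were low, with mean levels in Pde2A-/- and Pde2A+/+ hearts of 1.48 and 1.22 CPM for Hcn2 and of 1.01 and 1.07 CPM for Hcn3, and none passed the test. The 22 other potassium channel genes held 5 that rose and 2 that fell. Kcne3, a small subunit that binds Kcnq1 and other channels, rose by 1.62 on the log2 scale (SE 0.33, adjusted p = 0.008), with 6.47, 9.13, 22.8, 13.7 and 31.6 CPM in Pde2A-/- hearts A, B, 14, D and 15 and 3.82 to 6.57 CPM in Pde2A+/+ hearts. As with Kcnj2, heart A was level with Pde2A+/+ hearts and heart 15 highest.

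Kcne4, a subunit that inhibits Kcnq1, rose by 0.71 (SE 0.12, adjusted p = 0.00196, edgeR), from 4.35 to 6.77 CPM in Pde2A+/+ hearts to 8.48 to 10.6 CPM in Pde2A-/- hearts, without overlap, as 5.38% of all genes tested did in this direction. Kcnd2, a pore of the transient outward current, fell by 0.43 (SE 0.09, adjusted p = 0.00757, edgeR), and its ranges of 6.96 to 9.4 CPM and 11.1 to 13 CPM did not overlap, as was the case for 3.11% of all genes in this direction. Its call was lost with cardiomyocyte scaling (adjusted p = 0.131). Kcnip2, an accessory subunit of the same current, and Abcc8, the regulatory subunit of ATP-sensitive channels, also rose, and Kcnj8, a pore of ATP-sensitive channels, fell. These calls were less stable, since Kcnip2 and Abcc8 passed in 13 of the 21 alternative fits each and Kcnj8 in 6. Kcnip2 did not pass without Pde2A-/- heart 14, D or 15 or Pde2A+/+ heart 7, 11, 6 or 8 (log2 fold change of 1.30 without D). Abcc8 did not pass without Pde2A-/- heart 14, D or 15 or Pde2A+/+ heart 7, 6, 8, H or E (0.66 without D). Kcnj8 passed in 1 of the 11 fits without 1 heart, that without Pde2A-/- heart D, and had -0.18 (adjusted p = 0.404) with cardiomyocyte scaling.

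Among 10 sodium channel genes 1 rose and 1 fell. Gpd1l, a regulator of sodium current, fell by 0.26 (adjusted p = 0.0209, edgeR), a call lost with cardiomyocyte scaling (-0.12, adjusted p = 0.414) and without Pde2A-/- heart 14 (adjusted p = 0.0532) or D (adjusted p = 0.0525). None of 7 calcium channel genes passed with edgeR, and Cacna1c, the L-type pore, had a log2 fold change of 0.02.

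Of 20 other connexins and pannexins, 16 were tested and 1 passed, Panx2, which fell by 0.29 (adjusted p = 0.047, edgeR). Panx2 passed in 7 of the 21 alternative fits, and in 1 of the 11 without 1 heart, that without Pde2A-/- heart A, and had -0.16 (adjusted p = 0.477) with cardiomyocyte scaling. Gja4 and Gja3, at 28.9 and 26.2 CPM in Pde2A+/+ hearts, had log2 fold changes of -0.03 and -0.10 and did not pass. Among 12 genes of the intercalated disc, where gap junctions sit, 1 rose and 1 fell. Dsg2, a desmosomal cadherin, rose by 0.40 (SE 0.06, adjusted p = 6.48e-04, edgeR), and Cav3, the caveolin of muscle, fell by 0.56 (SE 0.11, adjusted p = 0.00509, edgeR). The genotypes did not overlap for either gene, as for 5.38% of all genes tested upward and 3.11% downward.

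Among 19 factors and markers of the conduction system 2 rose and 5 fell. Etv1, a factor needed for fast conducting fibres, rose by 0.47 (SE 0.11, adjusted p = 0.0134), and Irx5 rose too. Etv1 passed in all 21 alternative fits and Irx5 in 14, not with the naming of the hearts as a term and not without Pde2A-/- heart A, B or D or Pde2A+/+ heart 7, 8 or H (0.47 without D, adjusted p = 0.0629). Nkx2-5, a core factor of the working myocardium, fell by 0.27 (SE 0.06, adjusted p = 0.0103, edgeR), and Bves, a membrane protein that binds cAMP, fell by 0.39 (SE 0.09, adjusted p = 0.0133, edgeR). Popdc3, of the family of Bves, Tbx18, a factor of sinoatrial node development, and Cpne5 also fell. Tbx18 passed in 11 of the 21 alternative fits, not without Pde2A-/- heart 14, D or 15 or Pde2A+/+ heart 7, 11, 6 or 8 (-0.24 without D, adjusted p = 0.116), and Popdc3 in 16, not without Pde2A-/- heart 14, D or 15 or Pde2A+/+ heart 6 (-0.30 without D, adjusted p = 0.0679). With cardiomyocyte scaling none of these 5 that fell passed, Nkx2-5 having an adjusted p of 0.224 and Bves one of 0.0584.

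**Figure D5:**
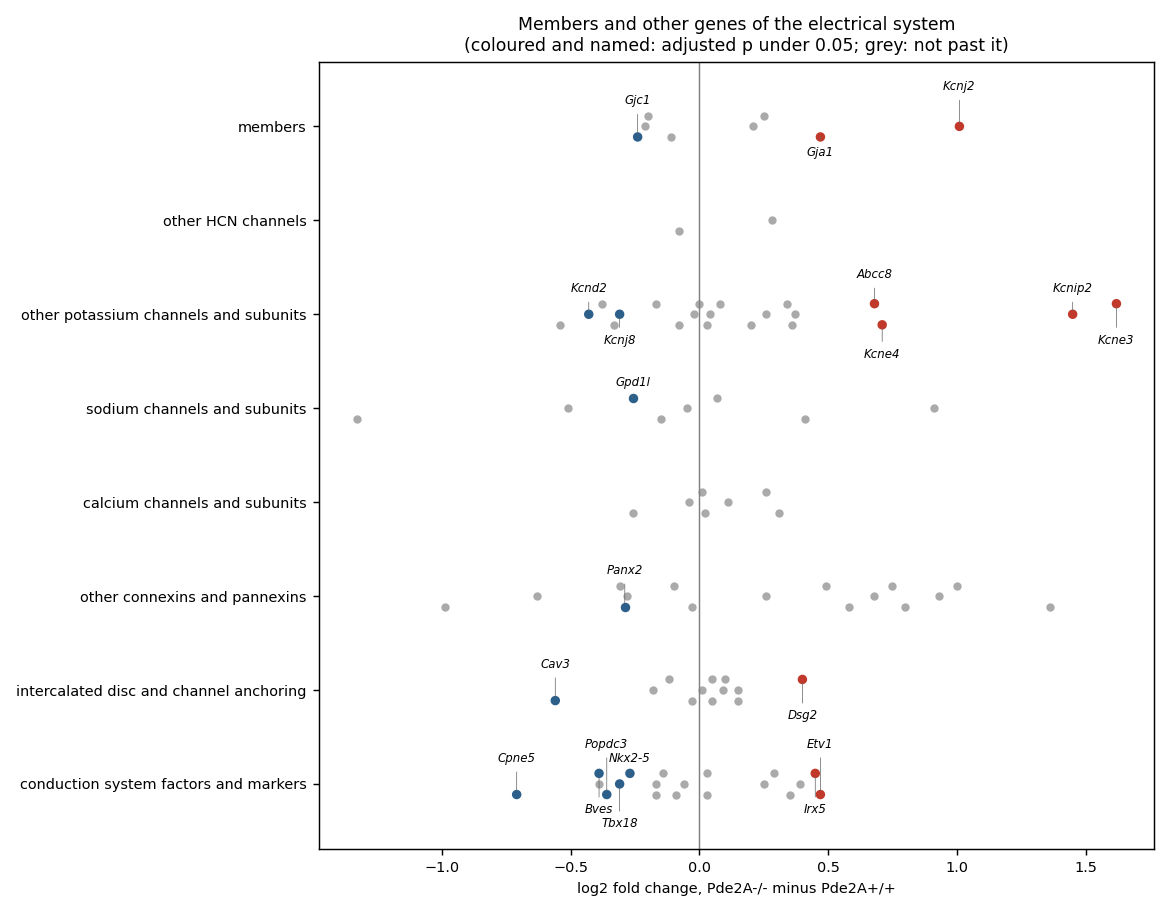
Log2 fold change of the 8 genes (top row) and of other genes of the electrical system grouped by function, each point 1 gene, with genes past an adjusted p of 0.05 coloured and named and without a few genes that are not reported here. Kcne3 at 1.62 and Kcnip2 at 1.45 lie above Kcnj2 at 1.01, and none of the calcium and other Hcn channel genes is coloured.

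The genes whose levels followed each of the 8 most closely from heart to heart were found among the 14024 genes whose mean reached 1 CPM, by Pearson's r over the 11 hearts after the genotype means were removed. This is a description of the same libraries, whose depth and composition all genes share. Each r is picked as the highest of 14024 over 11 hearts, where unrelated genes can also reach high values, and none was tested. Kcnj2 went with Dock1 (r = 0.992) and Prrg3 (0.98), and Gja1 with Mef2d (0.984) and Cyth3 (0.983). Gjc1 went with Impad1 (0.973) and Iws1 (0.97), Gja5 with Eri3 and Pdia3 (0.935 each). Kcnh2 went with Dusp27 (0.962) and Anxa6 (0.96), Kcnq1 with Crybg3 (0.974), and Kcne1 with Vps13c (0.972) and Hspa4l (0.95). For Hcn4 the closest genes were Ggt7 (0.857) and Abl2 (0.832), the weakest likeness of the 8.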

How the data were processed

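RNA from 11 embryonic hearts was sequenced in single-end mode on an Illumina NextSeq from stranded mRNA libraries. The authors mapped reads with STAR to GRCm38 (mm10), and the deposited values are raw counts of reads per gene, without normalization. The sense-strand counts were used, and the 19.6% to 22.4% of reads unmapped, mapped to several places or on no single gene stayed out. Names came from GENCODE M21, which matched 55227 of 55487 identifiers. Genes with at least 10 counts were normalized by TMM and compared by edgeR 4.0.16 (R 4.3.3), as tested on simulated data, with genotype as the only term. DESeq2 1.42.0 was an alternative. log2 CPM used a prior count of 2. Counting error, at most 3.34% for the 8 genes, was below their spread between hearts. It is larger for genes with few reads, such as Hcn3 with 31 to 49 counts per heart. The p-values measure the spread between hearts, which no label ties to litter. Genes outside the 8 were named when they passed an adjusted p of 0.05, with values for the 3 smallest of each list; Cacna1c, Gja3, Gja4, Hcn2, Hcn3 and the neighbours of Kcnq1 were named after their values were seen. Values of a few genes are left out of the text; they remain in list counts. The members and lists were chosen with earlier results of these data known. Fits within naming styles were added after the data had been seen.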

Additional observations from a re-analysis of the deposited data

How the results depend on the processing

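Within the naming styles, Kcnj2, Gja1, Gjc1 and Kcnq1 passed among number-named hearts, and none of the 8 passed among letter-named hearts. The sets were small, with 2 Pde2A-/- and 4 Pde2A+/+ hearts named by number and 3 and 2 named by letter. The share of all genes that passed within each set was not counted. These calls therefore cannot be read as particular to the 8 genes. In the fits of all hearts or all but 1, the 2 of the 8 genes that rose did so in each setting with 2 exceptions. Without Pde2A-/- heart D, and with a fold of at least 1.5 or 2, 1 did (range of 1 to 2 over the fits without 1 heart). The 1 that fell became 2 with DESeq2 or filterByExpr, 0 with cardiomyocyte scaling or a fold of at least 1.5 or 2, and 0 to 2 without 1 heart. Of the 89 other genes tested, 9 higher and 10 lower became 15 and 1 with cardiomyocyte scaling, 5 and 1 at a fold of at least 1.5, and 2 and 0 at a fold of at least 2, and ranged from 5 to 12 higher and 5 to 11 lower without 1 heart, the fewest higher without Pde2A-/- heart D or Pde2A+/+ heart 7. The Gja5 to Gja1 ratio ranged from -0.67 to -0.42 without 1 heart. Cardiomyocyte scaling moved the median of all genes by 0.13, and the shares of all genes called under it were not counted. The cause of these changes was not tested. Direction turned for Gja5 with cardiomyocyte scaling (0.02), and within 1 naming style for Hcn4 (0.11), Kcnq1 (-0.25), Kcne1 (-0.13) and Gja5 (0.11). The order of levels kept 27 or 28 of its 28 pairs of genes in each setting. No paired analysis was possible because the genotypes share no replicate name. With 11 hearts at this depth, the spread between hearts and not the counting of reads limits what could be detected for the 8 genes.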
